A study of Mus musculus with 23 samples.

Results

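The 10 genes described here act on the hepatic lipid droplet: the CIDE genes Cidea, Cideb and Cidec, the perilipin genes Plin2, Plin3, Plin4 and Plin5, and the lipolysis genes Pnpla2, G0s2 and Hilpda. They were taken by gene name from the 26522 genes listed in either of the deposited tables, and all 10 stand under the same identifier in both tables. All 10 are protein-coding genes.

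The livers came from 23 mice that carried B100 and had eaten a diet labelled WD for 16 weeks, and every animal was in the fed state at necropsy. Control females (B100-Control, n = 6) were compared with LKO females (B100-LKO, n = 6), and control males (n = 5) with LKO males (n = 6). LKO is read here, from the title of the series, as ablation of Cpt1a, the mitochondrial carnitine palmitoyltransferase that admits long-chain fatty acids to oxidation, in liver. The driver of the ablation and the ages of the mice are not given in the sources used here, and nothing in the labels says whether replicates shared a cage, litter or extraction, so p-values measure the spread between these livers.

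Hepatocytes store surplus fatty acids as triglyceride in droplets whose surface is coated by proteins. Perilipins cover that surface and limit or guide the access of lipases. CIDE proteins sit where droplets touch: Cidec and Cidea promote the transfer of lipid into larger droplets, and Cideb also acts in the lipid loading of very-low-density lipoprotein. Pnpla2 encodes adipose triglyceride lipase, which starts triglyceride breakdown, and the products of G0s2 and Hilpda both inhibit that lipase. Several of these genes are known targets of PPAR transcription factors, and Hilpda is also known as a gene induced by low oxygen.

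The deposited counts summed to between 14224665 and 19626662 per liver. Cpt1a was lower in every LKO liver than in every control liver of the same sex, with a log2 fold change of -2.35 in females and -2.50 in males (edgeR adjusted p = 3.69e-08 and 9.97e-05). Hepatocyte markers were abundant in all libraries, with Alb, Ttr, Cps1, Hnf4a and Apoa1 together at 50105 to 92195 CPM (counts scaled to library size). A pair of male livers, control replicate 4 and LKO replicate 1, stood apart from the rest of their groups in 2 members, Cidec and Cidea. Control male replicate 4 also had the lowest total count, the fewest genes with a count (18232) and the lowest scaling factor (0.870). The male results on members and lists are therefore given with all livers and again without this pair.

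Per unit of transcript length, Plin2 had the highest median of the 10 in all 4 groups. In single livers G0s2 lay above Plin2 in LKO female replicate 3 (402 against 215 FPKM) and control male replicate 2 (301.6 against 299.9 FPKM). Their ranges overlapped in control males. Median Plin2 was 155 FPKM (fragments scaled to gene length and library size, as deposited) in control females, 259 FPKM in LKO females, 309.9 FPKM in control males and 308 FPKM in LKO males. Plin2 made up a median of 75.1% of the summed Plin2 to Plin5 FPKM in control females and 81.3% in LKO females, with overlapping ranges of 71.6% to 83.4% and 76.2% to 84.0%. In males its median share was 81.9% in controls and 83.1% in LKO livers. The order below Plin2 differed between the groups. In control females the medians were 40.3 FPKM for Pnpla2, 38.1 FPKM for G0s2, 24.4 FPKM for Plin5, 17.5 FPKM for Cideb, 15.7 FPKM for Plin3 and 5.61 FPKM for Cidec. The ranges of G0s2 and Pnpla2 overlapped there, as did those of Cideb and Plin3. In control males the medians were 241 FPKM for G0s2, 121 FPKM for Cidec, 48.5 FPKM for Pnpla2, 38.8 FPKM for Cidea, 35.0 FPKM for Plin5, 22.97 FPKM for Cideb and 19.9 FPKM for Plin3. The ranges of Cidec and Cidea reached down to 5.56 and 0.289 FPKM in control male replicate 4. Plin4 and Hilpda stayed low throughout, with medians of 4.48 to 11.2 FPKM for Plin4 and 4.20 to 6.98 FPKM for Hilpda over the 4 groups.

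**Figure D1:**
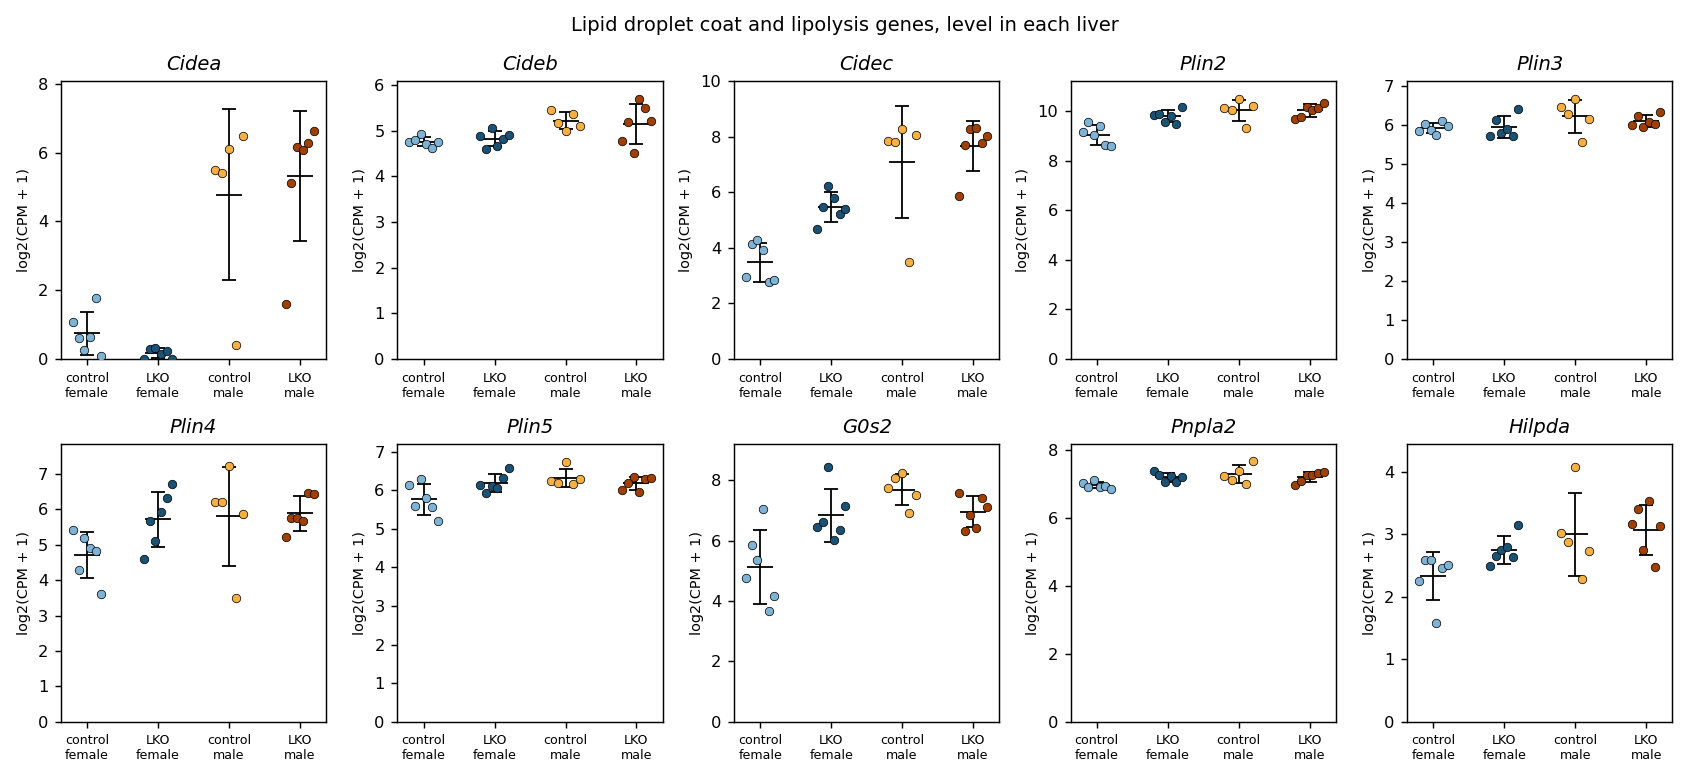
Level of each of the 10 genes in each liver, as log2(CPM + 1) with CPM scaled within each deposited table; points are livers, in order of replicate number within a group, and the bars give the mean and SD of the group (6 control females, 6 LKO females, 5 control males, 6 LKO males). Cidec separates the female groups without overlap (5.84 to 18.7 against 24.4 to 74.5 CPM), and 1 liver in each male group lies far below the others for Cidec and Cidea.

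In LKO females Cidec, which promotes droplet fusion and the unilocular droplets of fat cells, was 4.04-fold higher than in control females. The control females held 110, 290, 276, 224, 88 and 97 Cidec counts in replicates 1 to 6. The LKO females held 384, 748, 1199, 1134, 638 and 813. The lowest LKO female liver lay above the highest control female liver in raw counts as in CPM. The log2 fold change was 2.01 (standard error 0.32, 95% confidence interval 1.33 to 2.70, edgeR adjusted p = 0.00691). Cidec was the 1 member called at an adjusted p under 0.05 among the 9 members tested in females, where 194 of 13684 genes, 1.42%, were called in either direction and 0.928% as higher. It was also the 1 member whose groups did not overlap, which 1.05% of all genes tested did in that direction. The call held with each of the 12 livers left out in turn, with log2 fold changes of 1.82 to 2.21 and edgeR adjusted p of 0.00448 to 0.0211. When all 23 livers were fitted together, with 1 estimate of the spread for both sexes, the estimate was 2.02 and the edgeR adjusted p was 0.0660.

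The sequences around the starts of Cidec, the called member, of Plin2, the member nearest to the threshold, and of Hilpda, the known hypoxia-induced member, are shown to set the member that responded beside the nearest other member and beside one with a known oxygen-responsive promoter. They are RefSeq sequences of the build GRCm38.p6, an older build than the mm39 of the submitters' processing notes, and run from 200 bases before to 10 bases after each start, 5′ to 3′ on the strand of the gene. Capitals mark ACGTG on either strand, a form of the core of the hypoxia response element. The form with G as its first base, GCGTG, was not searched and is not marked.
Cidec, start 1, chr6:113435751-113435960, minus strand: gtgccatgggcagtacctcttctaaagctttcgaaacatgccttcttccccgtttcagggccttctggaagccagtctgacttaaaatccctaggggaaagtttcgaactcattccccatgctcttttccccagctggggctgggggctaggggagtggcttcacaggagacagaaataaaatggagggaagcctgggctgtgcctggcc
Cidec, start 2, chr6:113434755-113434964, minus strand: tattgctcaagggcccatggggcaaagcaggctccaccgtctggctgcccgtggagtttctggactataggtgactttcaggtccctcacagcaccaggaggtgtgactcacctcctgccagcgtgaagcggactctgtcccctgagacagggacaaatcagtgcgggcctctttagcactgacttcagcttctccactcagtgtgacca
Plin2, chr4:86670050-86670259, minus strand: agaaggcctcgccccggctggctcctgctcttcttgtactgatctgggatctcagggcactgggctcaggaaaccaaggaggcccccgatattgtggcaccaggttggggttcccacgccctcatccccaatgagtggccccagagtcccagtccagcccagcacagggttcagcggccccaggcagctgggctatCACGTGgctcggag
Hilpda, start 2, chr6:29272426-29272635, plus strand: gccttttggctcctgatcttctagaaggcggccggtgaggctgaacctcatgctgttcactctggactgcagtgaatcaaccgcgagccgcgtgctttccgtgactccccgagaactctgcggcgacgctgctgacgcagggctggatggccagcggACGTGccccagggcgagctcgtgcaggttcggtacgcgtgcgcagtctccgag
RefSeq windows were at hand for 9 members with 12 starts, and the search covered 250 bases before to 50 after each. In Plin2 the matches begin at bases -4 and -3 from the start, 1 on each strand. They are a single palindrome, CACGTG, which reads the same on both strands, and do not count as separate sites. In Hilpda the match begins at base -43 from the second start. No other member window held ACGTG, and neither Cidec start did. The unsearched form GCGTG does stand in the printed windows of Cidec start 2 and Hilpda start 2, so the core as such is not absent from Cidec. ACGTG occurs in 19.6% of 32851 promoters of that length, so matches in 2 of 9 genes are a description only. The direct repeat of AGGTCA with 1 base between the copies, the form bound by PPAR with RXR, was in no member window on either strand and in 0.0396% of all promoters. Its looser form, a repeat of AGGNCA with the same spacing, was in none and in 0.381%. The letters TATAAA, a form of the TATA box, were found in Cideb at -172 and in 13.6% of all promoters. That match lies far before the start and is not read as a TATA box. Near forms such as TATAAG, which stands in the windows of Plin4 and Plin5, were not searched. These are matches of letters in short windows and not measured sites.

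The other CIDE genes did not follow Cidec in females. Cideb, the CIDE gene of hepatocytes, held 358 to 468 counts in control females (median 415) and 394 to 571 in LKO females (median 494.5). The groups overlapped almost fully, and the log2 fold change was 0.07 (95% confidence interval -0.12 to 0.25, edgeR adjusted p = 0.778). Cidea, best known from brown fat and from fatty liver, was near the limit of detection in females. Control females held 18, 9, 3, 9, 37 and 1 Cidea counts and LKO females 0, 4, 4, 2, 3 and 0. Replicate 5 of the controls carried the most, and the groups overlapped. That liver also held 70 counts of the adipocyte marker Ucp1, where the control female median was 0, and 20 counts of Plin1. The part of fat cells in the Cidea values was not tested. Cidea did not pass the filter on low counts in females and so was not tested there. Without the filter the log2 fold change was -2.66 (standard error 0.74, edgeR adjusted p = 0.111), while the authors' deposited table lists Cidea in females at -2.72 with an adjusted p-value of 0.0271. So the 2 genes that both enlarge droplets, Cidec and Cidea, had estimates of opposite sign in females, with Cidea resting on 37 counts or fewer in every liver.

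Among the perilipins, Plin2 came closest to the threshold in females. Plin2, the main droplet coat of hepatocytes, held 9339, 13075, 7680, 10944, 5913 and 5918 counts in control females. LKO females held 14642, 16015, 12178, 18579, 12571 and 22666. Control replicate 2 lay above LKO replicates 3 and 5 in raw counts and, at 749 against 713 CPM, above LKO replicate 5 after scaling, and the other control livers lay below all LKO livers. The log2 fold change was 0.71 (standard error 0.17, 95% confidence interval 0.35 to 1.07), with an edgeR adjusted p = 0.0519. DESeq2, which called 4.09% of all genes, gave an adjusted p of 0.00298 for Plin2, edgeR without the filter on low counts gave an adjusted p of 0.0366, and the authors' deposited table lists 0.71 with an adjusted p-value of 0.00310. With replicate number as a block, edgeR gave Plin2 an adjusted p of 0.0325. The Plin2 call thus turned on the test, on the filter and on the block. It was also made in 3 of the 12 edgeR fits that left out 1 liver, with adjusted p of 0.0286 to 0.123 over the 12.

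Plin4, a coat protein of nascent droplets that is abundant in fat cells, held 173 to 696 counts in control females (median 439) and 363 to 2045 in LKO females (median 1044.5). Its log2 fold change of 1.09 (standard error 0.34, edgeR adjusted p = 0.131) was larger than that of Plin2, but LKO replicates 1 and 3 lay within the control range. Plin5, which links droplets to mitochondria, held 557 to 1150 counts in control females (median 846) and 1015 to 1859 in LKO females (median 1226.5), with a log2 fold change of 0.40 (95% confidence interval 0.05 to 0.74, edgeR adjusted p = 0.260). Plin3, the ubiquitous perilipin, held 830 to 1117 counts in control females and 806 to 1661 in LKO females, with a log2 fold change of 0.04 (95% confidence interval -0.21 to 0.30, edgeR adjusted p = 0.907). The Plin3 estimate turned negative, at -0.07, without LKO female replicate 6, which held the 1661 counts.

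Of the lipolysis genes, G0s2 had the widest range. G0s2 held 429, 1006, 596, 2105, 175 and 262 counts in control females. LKO females held 1376, 1654, 5639, 1317, 1436 and 2769. Only control replicate 4 reached into the LKO range, and LKO replicate 3 stood above all others. The log2 fold change was 1.53 (standard error 0.55, 95% confidence interval 0.36 to 2.69, edgeR adjusted p = 0.182). It became 2.16 with an edgeR adjusted p of 0.0424 without control female replicate 4, and was 0.99 without LKO female replicate 3. Pnpla2, the lipase itself, held 1772 to 2135 counts in control females (median 1967) and 2117 to 3101 in LKO females (median 2576.5). Its log2 fold change was small, 0.23 (standard error 0.08, edgeR adjusted p = 0.139). Hilpda held 32 to 88 counts in control females (median 70.5) and 73 to 155 in LKO females (median 92), with a log2 fold change of 0.47 (standard error 0.20, edgeR adjusted p = 0.266).

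All 9 members tested in females had a log2 fold change above 0, against 51.1% of all genes tested. Of the 9, 7 had an unadjusted edgeR p under 0.05 in the higher direction, against 8.31% of all genes tested. The median log2 fold change of the members was 0.47, and that of all genes tested was 0.01. The members were chosen with earlier results of these data known, so these shares are a description only. They were measured in the same livers and are not independent observations, and 1 of 9 members passed the adjusted threshold.

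**Figure D2:**
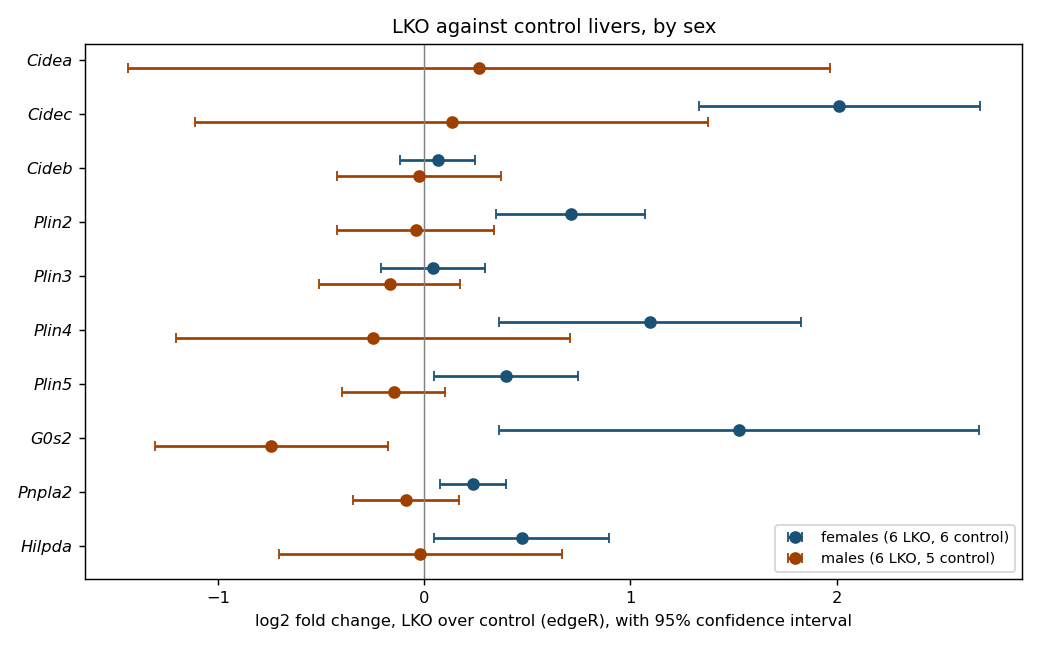
Log2 fold change of LKO over control livers for each gene by edgeR, females in blue and males in brown; points are estimates and bars are 95% confidence intervals, and Cidea has no female point because it was not tested there. The female estimates run from 0.04 for Plin3 to 2.01 for Cidec, and the male interval of Cidec, -1.11 to 1.38, includes 0.

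Markers of other cell types moved in part with the female groups. Of 8 macrophage and Kupffer cell markers, 2 were called higher in LKO females: Gpnmb, with a log2 fold change of 3.22 (edgeR adjusted p = 0.00256), and Trem2, with 1.32 (edgeR adjusted p = 0.00314), both known from lipid-laden macrophages. Of all genes tested, 0.928% were called higher. Of the 8, 5 had estimates above 0 and 3 below. An unadjusted edgeR p under 0.05 in the higher direction was seen for 4, against 8.31% of all genes tested. DESeq2 called 3, against 4.09% of all genes in either direction. The summed level of the 8 overlapped, at 310 to 497 CPM in control females and 373 to 503 CPM in LKO females. Clec4f alone had medians of 245 and 233 CPM, so the sum says little on Gpnmb and Trem2. None of the 8 was at 0 in either group. The 5 adipocyte markers summed to 0 to 6.44 CPM in control females and 0.587 to 5.14 CPM in LKO females. Adipoq, Lep, Retn and Ucp1 were too low to be tested. Cfd, the adipocyte marker that was tested, had a median of 0.519 CPM in control and 1.32 CPM in LKO females, with overlap and a log2 fold change of 1.53 (edgeR adjusted p = 0.320). Plin1, the perilipin of fat cells, had a median of 0 counts in control females and 1.5 in LKO females. LKO replicates 4 and 5 held 31 and 18 Plin1 counts, and control replicate 5 held 20. Those LKO livers held 1240 and 1395 counts of Plin4, while LKO replicate 6, with 2045 of Plin4, held 1 of Plin1. All 5 hepatocyte markers had estimates below 0 in LKO females, none of them called by edgeR and 1 with an unadjusted p under 0.05. The 4 stellate cell markers had estimates above 0, none called and 2 with an unadjusted edgeR p under 0.05, and summed to 58.9 to 89.6 CPM in control females and 59.7 to 133 CPM in LKO females. The part of macrophages, fat cells or stellate cells in the Cidec, Plin2 and Plin4 values was not tested. In RNA of whole liver, fewer cells of a type and less RNA per cell cannot be told apart.

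Beyond the members, 25 other lipid droplet and lipolysis genes were followed, of which 24 were tested and Plin1 was not. In females 2 of 24 were called higher and none lower, where 0.928% of all genes tested were called higher. Hsd17b11, a droplet-bound dehydrogenase, had a median of 208 CPM in control and 281 CPM in LKO females, with a log2 fold change of 0.45 (edgeR adjusted p = 0.0384). Hsd17b13, its relative that is abundant on hepatocyte droplets, had a median of 350.4 and 482 CPM, with a log2 fold change of 0.46 (edgeR adjusted p = 0.0384). Ubxn4, an endoplasmic reticulum protein, had a log2 fold change of -0.30 (edgeR adjusted p = 0.0632). The 24 estimates ran from -1.52 to 0.70 with a median of 0.03. An unadjusted edgeR p under 0.05 was seen for 6 higher and 4 lower ones, where 8.31% of all genes had one as higher. Single genes of the list thus lay in both directions.

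Of 14 transcription factors and coactivators known to act on such genes, none was called in females by edgeR or DESeq2, and 1 had an unadjusted edgeR p under 0.05, namely Creb3l3, with a log2 fold change of 0.24 (edgeR adjusted p = 0.223). Pparg had 0.27 (edgeR adjusted p = 0.368) and Foxo1 -0.34 (edgeR adjusted p = 0.456). Of 14 PPAR-responsive genes outside the droplet, 1 was called higher in females, against 0.928% of all genes tested. It was Acot2, a mitochondrial acyl-CoA thioesterase, with a log2 fold change of 1.39 (standard error 0.31, edgeR adjusted p = 0.0384) and no overlap between the groups. All 14 had estimates above 0, against 51.1% of all genes tested, with a median of 0.58. Of the 14, 10 had an unadjusted edgeR p under 0.05 in the higher direction, against 8.31% of all genes tested. The list was chosen with earlier results of these data known. Its genes were measured in the same livers and are not independent observations, so these shares are a description only. DESeq2, which called 4.09% of all genes, called 3 of them: Acot2, Fgf21 and Cd36. Acot2 and Cd36 were the 2 without overlap, against 1.05% of all genes in that direction. Fgf21, a hormone secreted by liver, had 1.91 (edgeR adjusted p = 0.0906), and Cd36, a fatty acid transporter, had 0.59 (edgeR adjusted p = 0.111).

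In males none of the 10 members was called between LKO and control livers. The background there was 0.00724% of 13805 genes, which is Cpt1a alone, and DESeq2 called 112 genes (0.811%) and no member. Without both low livers, edgeR also called 1 gene and no member. An unadjusted edgeR p under 0.05 was seen for 1 member, against 12.5% of all genes. That member was G0s2. Control males held 3434, 4504, 5033, 1470 and 3086 G0s2 counts in replicates 1, 2, 3, 4 and 6. LKO males held 1319 to 2825, with a median of 2197. In raw counts all LKO males lay below the control males other than replicate 4, while in CPM LKO replicate 1, at 192, also lay above control replicate 6, at 181. The log2 fold change was -0.74 (standard error 0.26, 95% confidence interval -1.31 to -0.18, edgeR adjusted p = 0.303). It was -1.04 (edgeR adjusted p = 0.218) without both low livers.

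Cidec in control males held 3664, 3784, 5084, 128 and 4623 counts, so that replicate 4 carried a small fraction of the others. LKO males held 856, 3492, 5307, 4941, 3509 and 4548. Apart from control replicate 4 and LKO replicate 1, the ranges were 225 to 307 CPM in control males and 208 to 316 CPM in LKO males, which cover each other closely. The log2 fold change was 0.13 (standard error 0.58, edgeR adjusted p = 0.953), it was -0.17 without control male replicate 4, and it was 0.03 without both low livers. Cidea held 708, 692, 1121, 4 and 1509 counts in control males and 30, 569, 1217, 1050, 1239 and 1708 in LKO males. The same 2 livers were low, and the log2 fold change was 0.26 (standard error 0.79, edgeR adjusted p = 0.931), or 0.20 (edgeR adjusted p = 0.844) without that pair. The intervals of Cidec and Cidea in males, -1.11 to 1.38 and -1.44 to 1.97, were the widest among the 10 members.

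Plin2 held 17810, 18056, 23830, 8006 and 20114 counts in control males and 12128 to 22677 in LKO males (median 17373), with a log2 fold change of -0.04 (95% confidence interval -0.42 to 0.34, edgeR adjusted p = 0.951). Plin4 held 1174, 1222, 2463, 127 and 977 counts in control males and 534 to 1490 in LKO males. Replicate 4 was again the low control, and the log2 fold change was -0.25 (standard error 0.44, edgeR adjusted p = 0.874). The other 5 members had small estimates in males: -0.15 for Plin5, -0.17 for Plin3, -0.09 for Pnpla2, -0.03 for Cideb and -0.02 for Hilpda, with edgeR adjusted p between 0.637 and 0.988. Without both low livers the estimates were -0.12 for Plin2, -0.41 for Plin4, -0.15 for Plin5, -0.28 for Plin3, -0.11 for Pnpla2, 0.08 for Cideb and -0.19 for Hilpda, with edgeR adjusted p between 0.452 and 0.922, so Cideb changed sign. Over the 10 with all livers, 2 estimates were above 0, against 52.1% of all genes, and the median was -0.07, against 0.01 for all genes.

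The companion lists had no call in males with edgeR either, with all livers or without the low pair. Of the 24 other lipid droplet genes, 2 had an unadjusted edgeR p under 0.05 in each direction, where 12.5% of all genes had one in either direction. Tmem159, a seipin partner, had a log2 fold change of -0.65 (edgeR adjusted p = 0.279), Aup1, a droplet-bound ubiquitin adaptor, -0.25 (edgeR adjusted p = 0.280) and Mgll, which encodes monoglyceride lipase, 0.31 (edgeR adjusted p = 0.375). Among the transcription factors Cebpa had -0.28 (edgeR adjusted p = 0.274; DESeq2 adjusted p = 0.0490), Cebpb -0.44 (edgeR adjusted p = 0.375) and Nr1h3 -0.17 (edgeR adjusted p = 0.411). Of the PPAR-responsive genes, Fgf21 had -0.80 (edgeR adjusted p = 0.386), Ehhadh 0.26 (edgeR adjusted p = 0.652) and Acot2 0.48 (edgeR adjusted p = 0.660).

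Whether the response to LKO differed between females and males was tested as an interaction over 14503 genes. No gene was called by edgeR (0%), 12.9% of genes had an unadjusted p under 0.05, and DESeq2 called 96 genes (0.662%) and no member. Besides Cidea, which passed the filter through the males alone and had an estimate of -2.93, the largest member estimate was that of G0s2. Its response was 2.26 higher in females on the log2 scale (standard error 0.67, 95% confidence interval 0.87 to 3.65, edgeR adjusted p = 0.208), from 1.53 in females and -0.74 in males fitted alone. The estimate for Cidec was 1.88 (standard error 0.70, edgeR adjusted p = 0.289), for Plin4 1.34 (edgeR adjusted p = 0.357), for Plin2 0.75 (edgeR adjusted p = 0.257), for Plin5 0.54 (edgeR adjusted p = 0.307) and for Pnpla2 0.32 (edgeR adjusted p = 0.341). These 6 members had an unadjusted edgeR p under 0.05 in the higher direction, against 6.98% of all genes. So no member was shown to respond differently in the sexes at the adjusted threshold, and none was with any single liver left out or without both low male livers. The interaction of Cidec reached an edgeR adjusted p of 0.0709 without both of those livers.

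Between the control groups, the estimate for each of the 9 members besides Cidea was below 0, that is lower in females, while 50.5% of all genes had one above 0. Each sex has its own deposited table, and a difference in the making of the tables cannot be told apart from sex. Of 13699 genes, 18% were called in either direction and 9.2% as lower in females. Besides Cidea, which passed the filter only through the males, 4 of 9 members were called, all lower in females. Cidec was lower by a log2 fold change of -4.16 (standard error 0.63, edgeR adjusted p = 0.000896), G0s2 by -2.16 (standard error 0.52, edgeR adjusted p = 0.0125), Plin2 by -0.95 (standard error 0.21, edgeR adjusted p = 0.00855) and Cideb by -0.44 (standard error 0.09, edgeR adjusted p = 0.00637). Cideb was the member whose groups did not overlap, at 23.8 to 29.5 CPM in control females and 31.1 to 42.9 CPM in control males, against 5.2% of all genes in that direction. For Cidec the overlap was control male replicate 4 alone, with 10.4 CPM among control females at 5.84 to 18.7 CPM. Cidea lay at 0.0647 to 2.46 CPM in control females and at 41.1 to 88.3 CPM in control males other than replicate 4, which is given as a level with no test. Plin4, Plin5, Pnpla2, Hilpda and Plin3 were not called, with edgeR adjusted p of 0.0594 to 0.174. Without control male replicate 4, edgeR called 8 of the 9 members besides Cidea, all but Plin5, against 21.2% of 13907 genes. DESeq2 on all control livers called 7 of those 9, against 22.1% of all genes. The 5 adipocyte markers summed to 1.21 to 47.6 CPM in control males against 0 to 6.44 CPM in control females, nearly all of it Cfd, with up to 786 counts, while Ucp1 was at 0 in every control male. The part of fat cells in this difference was not tested.

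The members differed widely in how much they varied between livers of the same group. In females the within-group SD of G0s2 was 1.09 on the log2 CPM scale, above that of 99.3% of genes tested, where the median gene had 0.23. Plin4 had 0.74 (above 97.0%) and Cidec 0.66 (above 95.3%). Hilpda had 0.39 (above 77.7%). Pnpla2 was among the steadier genes in females, with 0.11, above 7.44% of genes. In males Cidea had an SD of 2.62, above 99.99% of genes, Cidec 1.54 (above 99.7%) and Plin4 1.02 (above 98.6%), with a median gene of 0.25. G0s2 had 0.52 in males (above 86.1%) and Pnpla2 0.21 (above 39.4%). Over the 9 males other than the low pair, the SD was 0.55 for Cidea (above 90.6%), 0.25 for Cidec (above 56.9%) and 0.49 for Plin4 (above 87.1%), so the spread of Cidec in males rested on that pair. Plin2, by far the highest in level, had an SD of 0.33 in females and 0.34 in males, nearer to the median gene.

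Co-variation of the other members with Cidec was examined across the livers of each sex with the genotype means removed, in 17 relations in all, 8 in females and 9 in males. In females G0s2 had the strongest relation, with Pearson r = 0.717 (permutation p = 0.0214) and Spearman rho = 0.692 (permutation p = 0.0316) over 12 livers. The edgeR slope of G0s2 was 1.30 log2 units per log2 unit of Cidec (standard error 0.32, edgeR adjusted p = 0.119). Without control female replicate 5 and LKO female replicate 3, the livers farthest from the median of Cidec, r was 0.533 (permutation p = 0.244), so the relation rests in part on those livers. Plin2 had r = 0.421 (permutation p = 0.234) and rho = 0.294 (permutation p = 0.404). For the other 6 members r lay between -0.120 and 0.371, with permutation p of 0.222 to 0.968. No slope of the 8 members was called in females, where 4 of 13683 genes, 0.0292%, were called.

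In males the livers fell into separate clusters of Cidec, so no r over all 11 is given for the members. With all 11 livers, 4 of 9 members had a called positive slope on Cidec, against 6.45% of 13804 genes in either direction and 3.4% as positive. The slopes were 1.97 for Cidea (edgeR adjusted p = 0.000196), 0.60 for Plin4 (edgeR adjusted p = 0.00888), 0.20 for Plin2 (edgeR adjusted p = 0.00945) and 0.16 for Plin3 (edgeR adjusted p = 0.0402). These calls rest on the 2 low livers. Without control male replicate 4, 128 genes and 1 member, Cidea, were called. Without both livers edgeR called no gene, and the slopes were 1.19 for Cidea (edgeR adjusted p = 0.711), 0.48 for Plin2 (edgeR adjusted p = 0.736), 0.22 for Plin4 (edgeR adjusted p = 0.954) and -0.02 for Plin3 (edgeR adjusted p = 0.994). Over the 9 other livers, which span a narrow range of Cidec, r was 0.621 for Plin2 (exact permutation p = 0.109, rho = 0.517 with p = 0.173) and 0.565 for Cidea (exact permutation p = 0.138, rho = 0.333 with p = 0.418). There r was 0.046 for Plin4 (exact permutation p = 0.920) and -0.016 for Plin3 (exact permutation p = 0.967). The other 5 members had r between -0.320 and 0.437 over those 9 livers, with exact permutation p of 0.237 to 0.934.

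Control male replicate 4 was low in more than the members. It held 15 counts of Cfd where the other control males held 238 to 786, and 375 counts of Cd36 where the control median was 2091. Its 5 hepatocyte markers summed to 74282 CPM, within the control male range of 54124 to 78029. Its macrophage markers summed to 352 CPM, level with control male replicate 3 at 351 CPM. LKO male replicate 1 held 93 Cfd counts, within the LKO male range of 69 to 413, and 857 counts of Cd36, the lowest of its group. What set these livers apart was not tested.

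**Figure D3:**
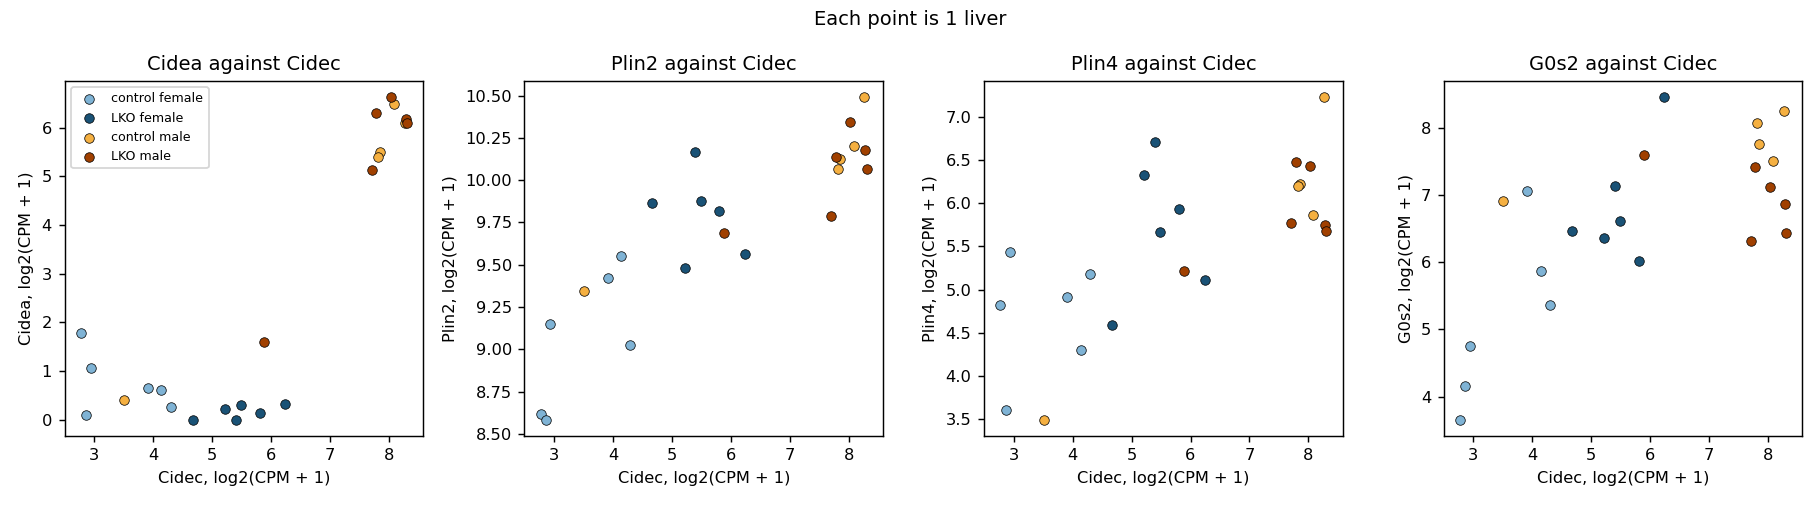
Level of Cidea, Plin2, Plin4 and G0s2 against the level of Cidec, each as log2(CPM + 1) scaled within the deposited table of each sex; every point is 1 liver, coloured by group. Cidea is high in 9 male livers and low in control male replicate 4 and LKO male replicate 1, which also hold the lowest male Cidec, and G0s2 in females is higher in livers with more Cidec (r = 0.717 with genotype means removed).

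The genes whose pattern was most like that of Cidec were ranked among 10326 genes by the smaller of their r in females and in males. The male r behind the ranks was taken over all 11 livers, clusters included, so the ranks rest in part on the low pair and the r itself is not given. The closest by rank were Cgref1 (r = 0.936 over 12 female livers), Plod3 (0.894), Dab2ip (0.856), Cntnap1 (0.849) and Osbpl3 (0.841). Over the 9 males other than the low pair r was 0.740 for Cgref1 and 0.816 for Cntnap1, but 0.362 for Plod3, 0.351 for Osbpl3 and -0.388 for Dab2ip. Cidea was not tested in females and so was not ranked. Of the 8 members ranked, the nearest, Plin2, stood at 644, followed by G0s2 at 1054 and Plin5 at 1461. The points within a sex share their deposited table.

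Ratios within a liver, in which library scaling cancels, compare the members per unit of length. Cidec lay below Cideb in FPKM in 6 of 6 control females, with ratios of 0.193 to 0.508. It lay above Cideb in 5 of 6 LKO females, with ratios of 0.692 to 1.86, and in 6 of 6 LKO males and 4 of 5 control males. The female groups did not overlap in this ratio. The ratio of G0s2, the inhibitor, to Pnpla2, the lipase, had a median of 0.860 in control females (0.329 to 3.81) and 2.19 in LKO females (1.47 to 9.24), with overlap through control replicates 2 and 4. In males the median was 4.97 in controls (3.08 to 6.70) and 2.80 in LKO livers (1.96 to 5.36), and the groups overlapped. These ratios reuse the values above and were given no test.

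**Figure D4:**
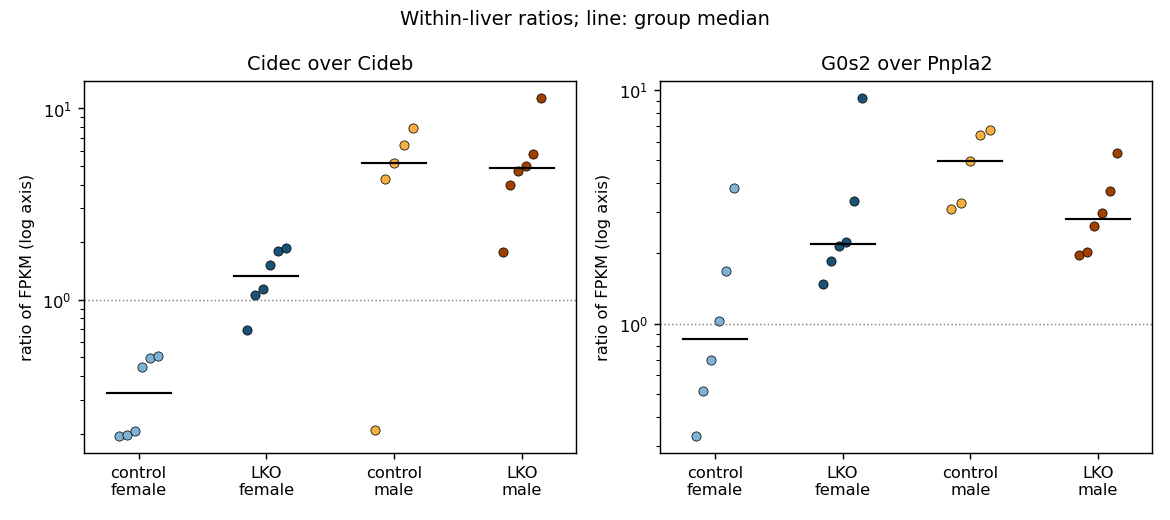
Ratio of the deposited FPKM of Cidec to Cideb (left) and of G0s2 to Pnpla2 (right) in each liver, on a log axis; points are livers, horizontal lines are group medians and the dotted line marks a ratio of 1. Control females lie at 0.193 to 0.508 for Cidec over Cideb and LKO females at 0.692 to 1.86, while the groups overlap for G0s2 over Pnpla2 in both sexes.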

How the data were processed

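Polyadenylated RNA of 23 mouse livers was sequenced, and the authors deposited 1 table per sex. Raw read counts per gene, FPKM per liver, and log2 fold changes with adjusted p-values for LKO against control stand in the deposited tables, per the file headers. Reads were aligned with HISAT2 2.0.5 to mm39, per the submitters' processing notes. The counting tool, its annotation and whether it used the strand that dUTP libraries keep are not given in the sources used here, so reads of overlapping genes are uncertain.

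The tests took the deposited counts into edgeR 4.0.16, run in R 4.3.3. After filterByExpr and TMM scaling, the quasi-likelihood test was followed by Benjamini-Hochberg adjustment over all genes tested, and a gene was called below 0.05. Females and males had separate fits. The interaction and the comparison of the control groups used the 22852 genes of both tables. Standard errors are the log2 fold change divided by the square root of F. CPM values are scaled by TMM within a table. Slopes on the log2 CPM of Cidec (prior count 2) carried a genotype term, and correlations were tested two-sided by 100000 permutations within genotype, or exactly over 2880 arrangements for 9 males. DESeq2 1.42.0 was an alternative, beside other scalings, filters, a replicate block, a joint fit, and each liver left out. The fits were tested on simulated data. No pair of replicates was a duplicate: the smallest chi-square per degree of freedom between libraries of a group was 11.6.

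The members, the companion lists (25 droplet genes, 14 regulators, 14 PPAR-responsive genes) and the comparisons were chosen with earlier results of these data known. Named genes are the members, Cpt1a, the 3 lowest p of each list and sex, and the 5 genes most like Cidec with a mean of at least 50 counts. Cd36, Cfd, Plin1, Ucp1, Clec4f, Gpnmb and Trem2 were also named as markers after their values were seen. Fits without the 2 livers of a sex farthest from the median of Cidec were added after seeing the data.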

Additional observations from a re-analysis of the deposited data

Results flagged for a closer look

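In 6 of the 40 combinations of a member and a group that were examined, 1 liver stood apart from the rest of its group by the ratio of its gap to the range, where chance gives about 1 in 20. In control male replicate 4, Cidec was at 10.36 CPM against 225 to 307 CPM in the other control males, and Cidea at 0.3237 CPM against 41.1 to 88.3 CPM. In LKO male replicate 1, Cidec was at 58.11 CPM against 208 to 316 CPM in the other LKO males, and Cidea at 2.037 CPM against 33.9 to 97.7 CPM. Hilpda in control female replicate 4 was at 2.004 CPM, below the 3.76 to 5.04 CPM of the other control females. Plin5 in control male replicate 3 was at 104.6 CPM, above the 70.7 to 77.8 CPM of the other control males. The cause of each was not tested.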

How the results depend on the processing

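Cidea had too few counts to be tested in females, and the 2 low male livers widened the male intervals of Cidec and Cidea. Of the member estimates under alternatives that kept all livers or dropped a pair, 351 of 388 kept their direction and their side of the threshold. Counts of genes and members called by edgeR, which were 194 and 1 in females, 1 and 0 in males, 0 and 0 for the interaction, 2466 and 5 (Cidea among them) between controls, 4 and 0 for the female slope and 891 and 4 for the male slope, moved as follows. DESeq2 called 559 genes and 2 members (Cidec and Plin2) in females, 112 genes in males, 96 for the interaction and 8 members between controls. Without the filter, 2 members were called in females, 2 genes in males and 47 genes for the female slope; with at least 10 counts in every liver, 3 genes in males. Library size alone gave 2 genes in males and 1553 for the male slope, of which 83.8% were positive against 52.7%. The joint fit of 23 livers gave 94 genes and 0 members in females and 5 genes in males. Without a genotype term the female slope gave 744 genes and 2 members (G0s2 and Plin2). Replicate numbers were not treated as pairs in the main fits. With group means removed, same-numbered livers correlated at 0.0069 to 0.177 in females and -0.341 to 0.404 in males. Of the control livers, 3 of 6 females and 1 of 5 males correlated best with their own number. Whether same-numbered livers shared a batch was not tested. With a replicate block, 334 genes and 2 members were called in females, 2 genes in males, 991 genes and 3 members between controls, 0 genes for the female slope and 117 genes and 1 member for the male slope. Without the 2 livers farthest from the median of Cidec, 0 genes were called for the female slope, 0 genes and 0 members for the male slope, and 7 genes for the interaction.

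Leaving out 1 liver at a time gave 87 to 233 genes and 1 to 3 members in females, 1 to 2 genes in males, 0 to 17 genes for the interaction, 1766 to 2947 genes and 5 to 9 members between controls, 0 to 51 genes for the female slope, and 128 to 1245 genes and 1 to 4 members for the male slope. The member estimates that changed sign were these. In males Cideb was 0.0251 by library size alone and 0.0831 without both low livers, and Hilpda was 0.2308 with the replicate block. The interaction of Cideb was -0.0261 without both low livers. For the female slope, Pnpla2 was 0.0352 by library size alone, 0.0794 without a genotype term and 0.0092 without 2 livers, Plin3 was 0.0422, 0.009 and 0.069 there and 0.0208 with the replicate block, and Cideb was -7e-04 without 2 livers. For the male slope, Cideb was -5e-04 with RLE factors, -0.001 without a genotype term and -0.3459 without 2 livers, Plin5 was -0.0036 with the replicate block, and G0s2 was -0.1453 and Plin3 -0.0195 without 2 livers. With 1 liver left out, Plin3 in females ranged from -0.0702 to 0.0962. In males Pnpla2 ranged from -0.1574 to 0.0222, Plin4 from -0.5288 to 0.1974, Cidea from -0.0514 to 0.5961, Plin2 from -0.1817 to 0.0854, Cidec from -0.1744 to 0.3327, Cideb from -0.1519 to 0.0898 and Hilpda from -0.1817 to 0.4234. The interaction of Cideb ranged from -0.0166 to 0.2169. Female slopes ranged from -0.0717 to 0.0286 for Pnpla2, -0.1626 to 0.2766 for Plin4, -0.0221 to 0.1462 for Hilpda, -0.0365 to 0.21 for Plin5 and -0.0912 to 0.0158 for Plin3. Male slopes ranged from -0.3104 to 0.2132 for G0s2 and -0.0443 to 0.1774 for Cideb. The causes were not tested.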

Other observations

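The companion lists were also read in the comparisons for which the text above gives only the members. Between control females and control males, edgeR called 18% of all genes in either direction and 9.2% as lower in females. There 1 of 24 other lipid droplet and lipolysis genes was called higher and 6 lower in females. Of 14 transcription factors and coactivators, 2 were called higher and 0 lower, and 3 of 14 PPAR-responsive genes were called in each direction. For the slope on Cidec in males, 6.45% of genes were called in either direction and 3.4% as positive. The positive calls numbered 5 of 24, 1 of 14 and 5 of 14, and the negative calls 1, 1 and 0. No gene at all was called for that slope without the 2 low male livers. For the slope on Cidec in females none of the 3 lists held a call by edgeR, where 0.0292% of all genes were called.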
